A study of Saccharomyces cerevisiae W303 with 28 samples.

Results

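Chromatin immunoprecipitation sequencing (ChIP-seq) of Scc1 was compared between wild-type budding yeast (Saccharomyces cerevisiae, W303 background) carrying 1 DNA double-strand break (induced by galactose) and wild-type cells whose cut site is uncleavable. The comparison rests on 10 of the 28 libraries of the series: 5 immunoprecipitates (IP), each with the extract (input DNA) of the same strain and replicate. They were chosen by label as every nocodazole-treated wild-type library of tagged Scc1 with and without a break. Cells with a break gave 3 IP libraries, of which 2 carry Scc1-6HA (strain APY875, replicates 1 and 2) and 1 carries Scc1-PK9 (strain APY573). Cells without a break gave 2 IP libraries, 1 of Scc1-6HA (strain APY879) and 1 of Scc1-PK9 (strain APY667). All 5 had been in galactose for 4 h, stated as 2% for both no-break strains, and all had nocodazole, which removes microtubules and holds cells in mitosis. HA libraries were made with an anti-HA antibody and Pk libraries with an anti-Pk antibody. Every group is a different strain, so the break and any other difference between strains cannot be told apart within a tag. One entry of the labels conflicts: the HA no-break strain is titled as uncleavable but its treatment entry names break induction. The title was followed, and its extract showed no loss of DNA at the break, as given below. Nothing in the labels says that libraries came from separate cultures, so p-values reflect how far these libraries vary, and that variation may be technical.

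Cohesin is a ring-shaped complex that holds sister chromatids together and folds chromatin into loops, and Scc1 is the kleisin subunit that closes the ring. In budding yeast it is loaded at centromeres, spreads over the pericentromere and collects along the arms where genes converge. A double-strand break is known to recruit more cohesin to the chromatin around it in mitotic cells, while exonucleases resect the broken ends and leave single-stranded DNA. The contrast asks where along the genome Scc1 differs once 1 break is present.

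The deposited values are read coverage in 12447 windows of 1 kb on 16 chromosomes, of which 11638 were kept. Taking the smallest value above 0 as 1 read, the median window held 87.3 and 69.7 reads in the HA break IPs, 53.4 in the Pk break IP, 66.0 in the HA no-break IP and 9.90 in the Pk no-break IP, which is the shallowest library. The extracts had medians of 45.6 to 113 reads. Their evenness differed with the groups: the SD of the log2 extract over windows was lowest in HA break replicate 1 (0.235), close to it in Pk break, and higher in HA break replicate 2 (0.458), Pk no break (0.552) and HA no break (0.731). Values below are relative to the library's own median, and differences are log2 of break over no break with tag as a covariate. Because of that term, fits that leave out 1 library are not all separate checks. Without either Pk library the fit is that of the HA libraries alone. Without HA no break the difference rests on Pk break against Pk no break, 1 library each. On the calibrated scale as deposited, the genome median was itself higher with a break, 1.18-fold for HA and 1.39-fold for Pk, or 0.34 on the log2 scale over both tags, and every difference below is relative to that shift. The HA IPs stood 8.03-fold (break) and 6.84-fold (no break) above an untagged cut strain taken through the anti-HA procedure. No untagged library was made with the anti-Pk antibody among the libraries used here.

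The break lay at chromosome 5, 119001 to 120000 in the coordinates of the deposited windows, whose build the sources used here do not name. It was located as the lowest running mean of 5 windows in 9 cut extracts outside the comparison over both no-break extracts, at 13.8%, and the lowest on any other chromosome was 56.9%. The extracts of the comparison itself showed the loss of DNA at the cut. Within 5 kb left of it the extract stood at a log2 of -3.18 and -3.25 in the HA break libraries and -3.20 in Pk break, against -0.37 in HA no break and -0.21 in Pk no break. The loss was 7.49-fold (limma adjusted p = 3.79e-04), 6.47-fold within 5 kb right, and narrowed to 2.75-fold at 5 to 10 kb left and 2.93-fold at 5 to 10 kb right. These 4 classes were the only regions of 148 (2.70%) called in the extract. At 10 to 15 kb the extract differences of -0.66 left and -0.36 right did not pass the test (limma adjusted p = 0.0717 and 0.124). In the whole genome the extract fell in 11 of 11638 windows (0.0945%), all on chromosome 5 from 110001 to 126000, and rose in 0, although 2530 were higher and 1517 lower at an unadjusted limma p under 0.05. Leaving out 1 library took the 11 calls to between 8 and 4587.

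**Figure D1:**
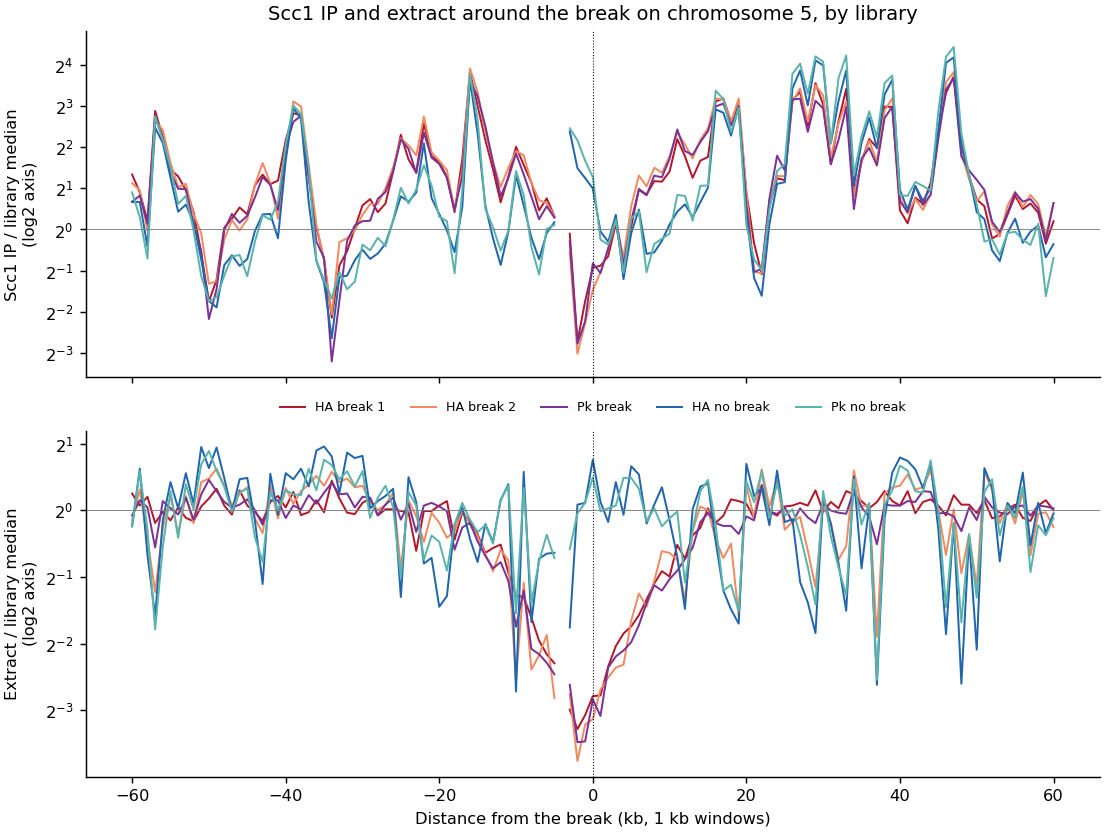
Scc1 IP (top) and extract (bottom) in each library, relative to the library median on a log2 axis, against distance from the break on chromosome 5 in kb, with 1 line per library and gaps at windows that were not kept. The 3 break libraries run above both no-break libraries from about 5 to 15 kb on either side and below them at the break itself, where the break extracts fall.

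The Scc1 IP at the cut site itself was lower with a break, and so was the extract. A Scc1 site of the uncut chromosome lay just left of the break: at 117001 to 118000 the IP reached 2.81 times the median in HA no break and 4.5 times in Pk no break, and 0.151, 0.123 and 0.146 times in HA break 1, HA break 2 and Pk break. The groups stood far apart, by 18.3-fold (log2 -4.19 ± 0.18, SE, limma adjusted p = 5.62e-07). In that window the extract differed by -2.95 and IP over extract by -1.12, and the untagged cut strain stood at 0.109 times its own median. The fall in the IP covered 116001 to 121000. At 119001 to 120000, the window of the break, the IP differed by -2.04 and the extract by -3.14. IP over extract rose there by 1.22 (limma adjusted p = 0.00835). Over the 3 kept windows within 5 kb left of the break the IP was at log2 -1.19, -1.64 and -1.42 with a break and 1.73 and 2.07 without, a difference of -3.29 ± 0.16 (SE, limma adjusted p = 5.95e-04). Most of it was shared with the extract: IP over extract in the same class stood at 1.94, 1.5 and 1.73 with a break and at 1.87 and 2.13 without, which overlap, and its difference of -0.26 lost its call when HA break replicate 2 was left out (-0.17) or in the HA libraries alone (-0.15). Within 5 kb right of the break the IP fell by 0.70 (± 0.04, SE) while IP over extract rose by 2.12, or 4.33-fold.

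From 5 to 15 kb Scc1 was higher with a break on both sides, in HA and in Pk. At 10 to 15 kb left the IP was at log2 1.55, 1.68 and 1.66 in HA break 1, HA break 2 and Pk break, and at 0.28 and 0.38 in HA and Pk no break. At 10 to 15 kb right the values were 1.63, 1.97 and 1.95 against 0.37 and 0.56. All 3 break libraries were above both no-break libraries by more than 1 log2 unit. The rises were 2.48-fold left (1.31 ± 0.06, SE, limma adjusted p = 5.95e-04) and 2.67-fold right (1.42 ± 0.11, limma adjusted p = 0.00186). At 5 to 10 kb they were 1.79-fold left and 2.20-fold right. The 7 cut IP libraries of other genotypes did not all reach the wild-type break level. They are of rad17, pds5-AID and rad17 pds5-AID strains with nocodazole, and each range or median pools these genotypes. At 10 to 15 kb they ran from log2 0.02 to 2.19 left (median 0.41) and from 0.58 to 2.46 right (median 0.85). At 5 to 10 kb they ran from -0.74 to 1.48 left (median -0.06) and from -0.75 to 1.52 right (median -0.20). The tags lay close together in some classes and apart in others: the difference was 1.43 in HA and 1.39 in Pk at 10 to 15 kb right and 1.03 and 0.97 at 20 to 30 kb left, where the joint rise was 2.01-fold, but 0.96 and 0.68 at 5 to 10 kb left and 0.56 and 0.24 at 15 to 20 kb left.

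Dividing by the extract raised these figures, since less DNA was left close to the cut. At 5 to 10 kb right, IP over extract stood at log2 2.15, 2.24 and 2.37 with a break and -0.69 and -0.36 without, a 7.05-fold rise against 2.20-fold for IP alone. At 5 to 10 kb left the rise was 5.37-fold against 1.79-fold, and at 10 to 15 kb it was 4.29-fold left and 3.73-fold right. From 15 kb outward the readouts differed less than this but not evenly: they were 1.01 over extract and 1.00 alone at 20 to 30 kb left, but 0.75 and 0.36 at 30 to 50 kb left. At 75 to 100 kb only the values over extract were called (0.33 left and 0.32 right, against 0.10 and 0.07 alone), and neither was called without HA no break (0.18 and 0.13). The fit over extract shared almost 1 common spread among regions (141 prior degrees of freedom), so its adjusted p-values are very small (8.36e-60 at 5 to 10 kb right) and should be read with the own-spread counts given below. Divided by its own extract, the untagged strain stood at log2 0.33 to 0.47 in the 6 classes within 15 kb, below the 1.5 to 2.85 of the tagged break libraries there.

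The 2 sides of the break differed with distance, and the right side runs into the pericentromere. To the left, 15 to 20 kb rose by 0.42, 30 to 50 kb by 0.36, 50 to 75 kb by 0.25 and the chromosome end beyond 100 kb by 0.44 (IP alone), while the 0.10 at 75 to 100 kb did not pass the test (limma adjusted p = 0.176). Without HA no break the first 3 of these were 0.24, 0.17 and 0.16 and were not called (limma adjusted p = 0.0717, 0.0548 and 0.0698), and 50 to 75 kb was also not called without HA break 1 (0.0707). To the right, the IP at 15 to 20 kb differed by 0.19 (limma adjusted p = 0.128), then fell by 0.48 at 20 to 30 kb and by 0.61 at 30 to 50 kb. The last class holds the cohesin maximum of chromosome 5, the approximate place of its centromere, 37 kb right of the break. The class at 20 to 30 kb adjoins it. The uncut chromosomes fell near their own maxima too, as given below. Their differences in IP alone were -0.71 within 5 kb, -0.66 at 5 to 10 kb and -0.45 at 10 to 15 kb. These 2 falls on the right are therefore not particular to the chromosome with the break. The values at 30 to 50 kb right were 2.26, 2.28 and 2.13 with a break and 2.72 and 2.95 without. With values not centred the fall at 20 to 30 kb right was -0.15 and was not called. Farther right, 50 to 75 kb rose by 0.26, a call lost when either Pk library or the HA no-break library was left out, and neither 75 to 100 kb (0.07) nor the rest of the arm (-0.10) was called. Of the 18 distance classes, 10 rose and 4 fell in IP alone, beside 14 of all 148 regions that rose (9.46%) and 68 that fell (45.9%, and 55.4% either way), and 13 rose and 3 fell over extract, beside 14.2% and 22.3% of all regions (36.5% either way). When the extracts were used as deposited, without being set to their own medians, the rises over extract at 15 to 20 kb left, beyond 50 kb on the left and from 50 to 100 kb on the right turned to between -0.17 and -0.01.

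**Figure D2:**
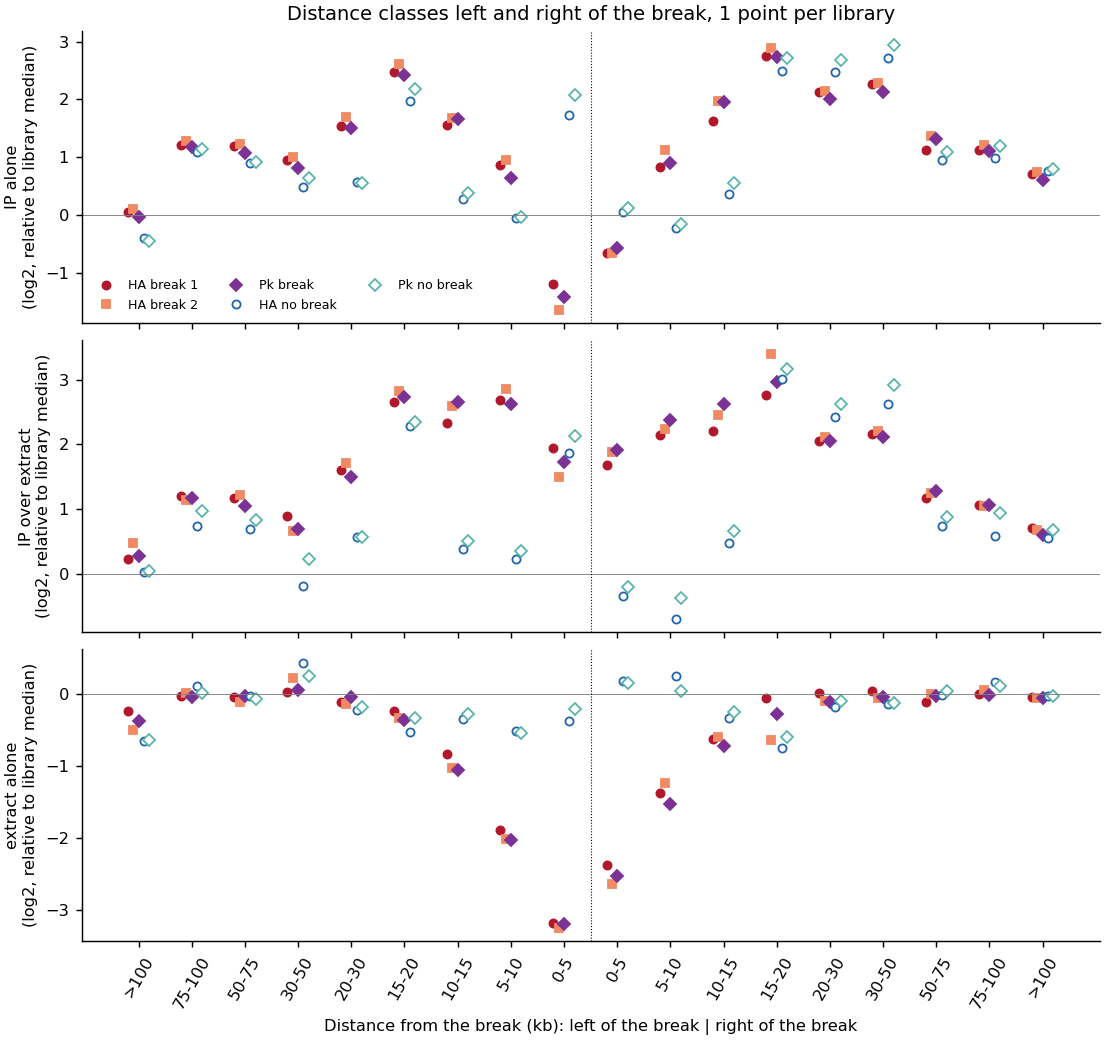
IP alone, IP over extract and extract alone (log2, relative to the library median) in 18 classes of distance from the break in kb, left and right of it, with 1 point per library. Filled points are break libraries and open points no-break libraries. At 10 to 15 kb the break points lie at 1.55 to 1.97 in IP alone, above 0.28 to 0.56 without a break.

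With 5 libraries each p rests on a spread borrowed from other regions. With each region's own residual spread (2 degrees of freedom), 3 of 148 regions were called in IP alone: the 5 kb right of the break (own-spread adjusted p = 0.0195, limma fit without moderation), chromosome 5 as a whole (0.0451) and the border of chromosome 12 (0.0252). None was called over extract. At an unadjusted p under 0.05, 69 of 148 were past the threshold in IP alone and 34 over extract. Exact permutation of the break labels within tag has 6 arrangements and cannot give a two-sided p under 0.167. That smallest value was reached at 10 to 15 kb on both sides, but with 6 arrangements it does not set a region apart.

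At the level of single windows, 71 of 11638 rose in IP alone (0.610%) and 117 fell (1.01%), 1.62% in all. Chromosome 5 held 56 of the 71 rises, or 78.9%, with 4.71% of the windows. Of these 56, 51 lay within 100 kb of the break, 35 to its left and 21 to its right in all, and they reached from 111 kb left to 109 kb right. The 7 called windows between 105001 and 113000 peaked at 105001 to 106000, 14 kb left of the break, where the IP was 4.53, 5.11 and 5.73 times the median with a break and 1.5 and 1.42 times without. That is a 3.45-fold rise (limma adjusted p = 3.26e-04). The 9 called windows between 126001 and 135000 peaked 8 kb right of the break, where the break libraries stood at 2.26, 2.83 and 2.48 times the median and the others at 0.680 and 0.784 (3.31-fold). A stretch of 13 called windows at 87001 to 102000 rose up to 2.48-fold, 25 kb left of the break, and 71001 to 78000 up to 2.21-fold, 45 kb left. At the peak of the first stretch, 94001 to 95000, the difference over extract was not called (0.64, limma adjusted p = 0.103). The no-break extracts stood there at 0.406 and 0.497 times their medians. The window after it, 95001 to 96000, rose 3.18-fold over extract. Smaller rises at 55001 to 59000, 21001 to 24000, 174001 to 185000 and 199001 to 202000 were between 1.78-fold and 2.15-fold. The last of these, 2.15-fold at its peak, was not a rise over extract (-0.45, limma adjusted p = 0.329), where the no-break extracts stood at 0.190 and 0.305 times their medians. The number of called windows moved with the libraries: it was 64 without HA break 1, 369 without HA break 2, 78 without either Pk library and 834 without HA no break, against 188 with all 5, and 0 with each window's own spread, where 1180 had an unadjusted p under 0.05.

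On the log2 scale the median rise near the break was larger in weakly bound windows than at strong Scc1 sites, while in multiples of the library median it was not for HA, as given below. The strongest window left of the break, at 103001 to 104000 and 16 kb from it, was at 14.1, 15.1 and 12.4 times the median with a break and at 12.6 and 13.8 without. The groups overlapped, and the difference was 0.05 ± 0.16 (SE, limma adjusted p = 0.891), while 105001 to 106000, only 2 kb nearer to the break, had the tallest rise of the chromosome. On the right, 135001 to 136000 was at 8.67, 9.10 and 7.95 against 7.58 and 10.4, beside the called windows up to 135000. So that no library was both sorted by and compared, windows were sorted by how high they stood in uncut cells carrying the opposite tag. This is a description made after seeing the data. Both sorting libraries are no-break libraries, which share a higher upper tail, as given at the end. The choice of strong windows is therefore not fully apart from the difference. At 5 to 35 kb from the break and outside the core, HA windows that stood under the median in Pk no break were higher with a break by a median of 1.11 (19 of 19 windows higher), and those at 4 or more times the median by 0.22 (6 of 8). For Pk, sorted by HA no break, the same classes were at 1.12 (18 of 22 higher) and -0.11 (3 of 9). The order depends on the scale: as a difference in multiples of the library median, HA stood at 0.90 in the weakest class, 1.60 at 1 to 2 times, 1.97 at 2 to 4 times and 1.28 at 4 or more times, and Pk at 0.77, 1.64, 0.85 and -0.66. At 35 to 120 kb the classes ran from 0.52 to 0.01 in HA and from 0.49 to -0.28 in Pk. On the arms of the uncut chromosomes weak windows stood at -0.03 in HA and 0.00 in Pk, and strong windows at -0.23 and -0.39. These are values with no test.

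**Figure D3:**
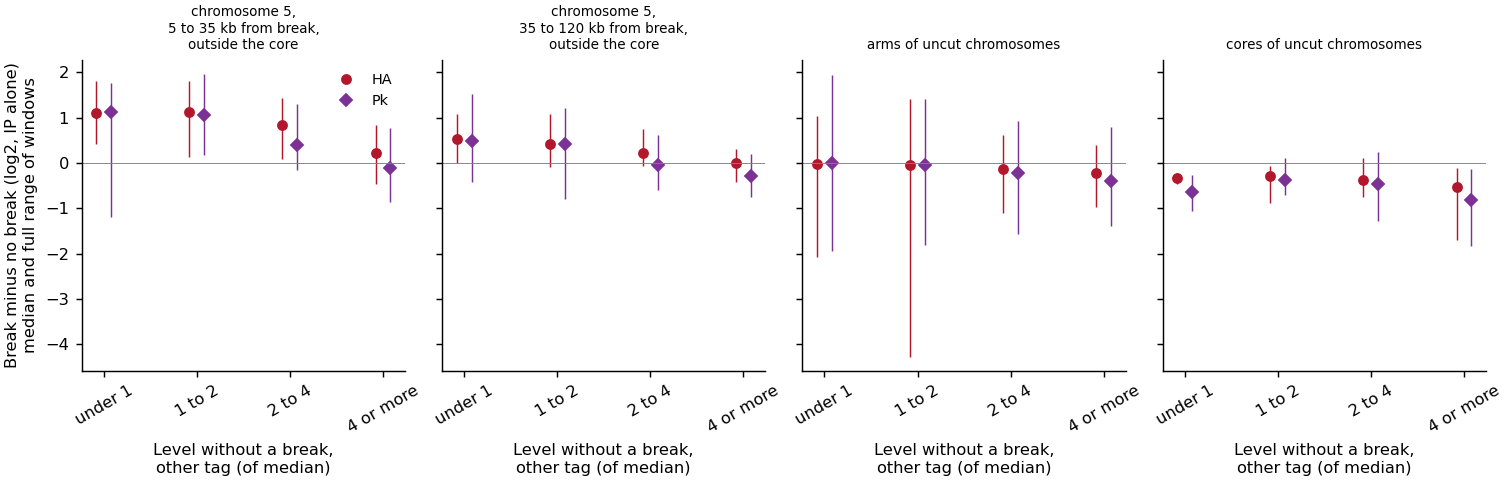
Break minus no break (log2, IP alone) for each tag in windows sorted by level in uncut cells of the opposite tag, in multiples of that library's median, for 4 parts of the genome. Points are medians and lines the full range over windows. Near the break the points fall from 1.11 and 1.12 in the weakest class to 0.22 and -0.11 in the strongest.

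Chromosome 5 was the only one of 16 whose median window rose, in either readout, at 0.28 ± 0.04 in IP alone (SE, limma adjusted p = 0.00460) and 0.33 ± 0.10 over extract (limma adjusted p = 0.00287). Its median stood at log2 0.28, 0.26 and 0.22 with a break and at -0.02 and -0.06 without. The other 15 chromosomes lay between -0.10 (chromosome 9) and 0.12 (chromosome 1) in IP alone and between -0.06 and 0.19 over extract, and none was called. With a trended robust prior spread chromosome 5 was not alone: 2 of 16 rose and 1 fell in IP alone, and 3 rose over extract. On the calibrated scale as deposited, where the shift of the whole genome is kept, 15 of 16 rose in IP alone, chromosome 5 by 0.62. The value over extract was 0.29 and not called without HA no break, and -0.12 with extracts as deposited. Compared with the same value on the other chromosomes, a test added after seeing the data, chromosome 5 was higher by 0.29 in IP alone (limma adjusted p = 0.00792) and 0.33 over extract (0.0156). In that test 7 of 109 regions were higher (6.42%) and 9 lower (8.26%, 14.7% in all) in IP alone, but 0 were called without HA break 1. Over extract 6 of 109 were higher (5.50%) and 0 lower (23 at an unadjusted limma p under 0.05), and 0 were called in any of the 4 fits that leave out another library.

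**Figure D4:**
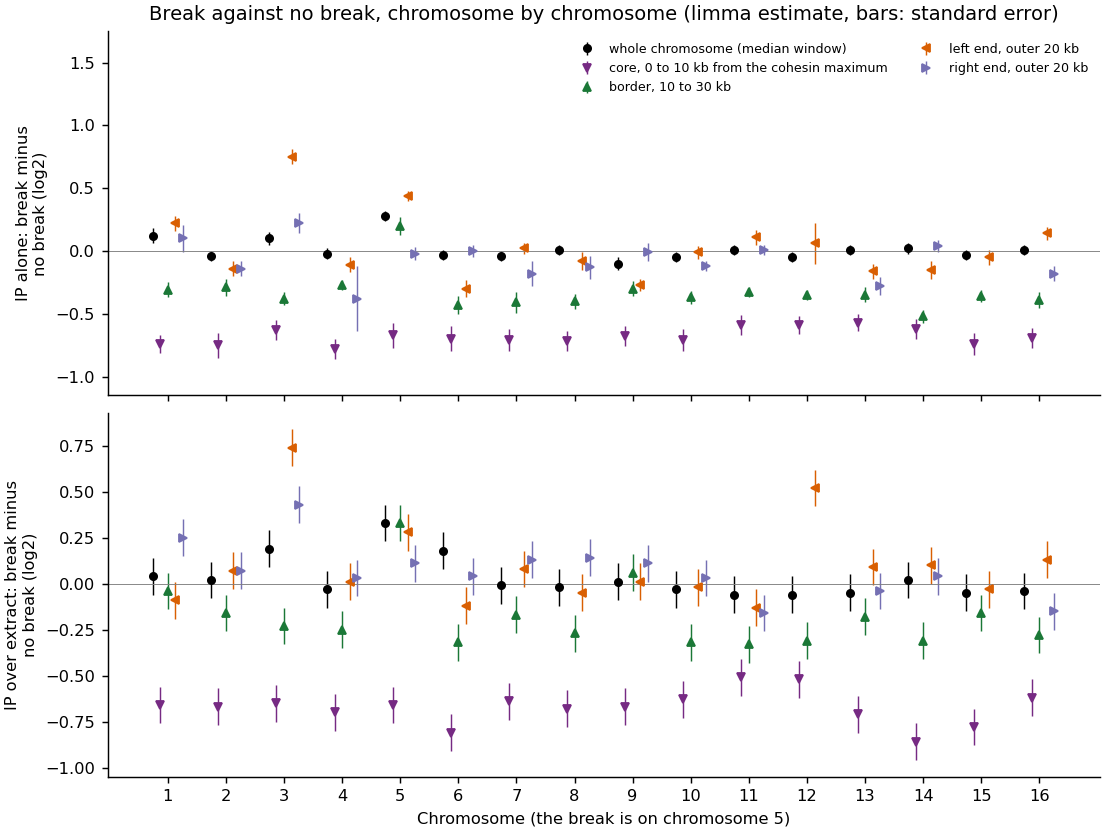
Break minus no break (log2) for each chromosome in IP alone (top) and IP over extract (bottom): the median window, the core within 10 kb of the cohesin maximum, the border at 10 to 30 kb and both ends. Points are limma estimates and bars standard errors. In IP alone, relative to the library median, cores lie between -0.57 and -0.78 on every chromosome, and chromosome 5 has the only border above 0.

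Pericentromeres held a smaller share of the Scc1 signal in cells with a break. The cores, within 10 kb of each chromosome's cohesin maximum, took 7.94% and 8.09% of the IP signal in the HA break libraries and 7.77% in Pk break, but 10.5% in HA no break and 11.5% in Pk no break, with 2.61% of the windows. All 16 cores fell relative to the library median, by 0.57 to 0.78 in IP alone (median -0.69) and by 0.51 to 0.86 over extract (median -0.66). Over all regions 45.9% fell in IP alone. The core of chromosome 4 was at 2.29, 2.34 and 2.20 with a break and 2.97 and 3.14 without (-0.78 ± 0.08, SE, limma adjusted p = 0.00281). The core of chromosome 13 was at 2.41, 2.40 and 2.34 against 2.88 and 3.05 (-0.57 ± 0.07). On the calibrated scale as deposited, where the genome shift is kept, the core differences were still below 0, from -0.44 to -0.24, and 13 of 16 were called. In IP alone the cores were called in 16 of 16 chromosomes without HA break 1 and without HA break 2. In the HA libraries alone, which is the fit without either Pk library, they differed by -0.65 to -0.47. Without HA no break, where 1 Pk library stands against 1, they differed by -0.98 to -0.71. With each region's own spread 0 of 16 were called, though all 16 had an unadjusted p under 0.05 (limma fit without moderation). The 7 cut IP libraries of other genotypes lay between the groups in the core of chromosome 4 (2.54 to 2.98, reaching HA no break) and of chromosome 5 (2.53 to 2.79). In the core of chromosome 13 they ran from 2.70 to 3.07, above the break libraries and spanning both no-break libraries. The HA rad17 libraries among these 7 also set the place of every core, which can raise their own values there. The extract in the cores differed by a median of 0.07 and none was called. The untagged strain was itself raised in the cores, by 0.49 to 1.37, and with its calibrated signal subtracted the cores differed by -0.66 to -0.87. That anti-HA signal was subtracted from the Pk libraries too, for which no untagged library was available.

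Chromosome 5, which carries the break 37 kb from its cohesin maximum, had a core like the others but not a border like the others. Its core fell by 0.67 in IP alone (2.30, 2.31 and 2.12 against 2.80 and 3.01), inside the range of the uncut chromosomes. Borders, 10 to 30 kb from the maximum, fell on the 15 uncut chromosomes by 0.27 to 0.52 in IP alone. The border of chromosome 5 reaches into windows already given as rising near the break. Both 127001 to 128000 and 179001 to 180000, peaks of called rises 8 kb and 60 kb right of the break, lie in it. In IP alone 15 windows rose in all borders and 0 in borders of uncut chromosomes. Its values therefore count part of the rise near the break again and are not a separate result. The border of chromosome 5 stood at 1.64, 1.79 and 1.73 with a break and 1.44 and 1.64 without, a difference of 0.20 in IP alone (limma adjusted p = 0.0749) and of 0.33 over extract (limma adjusted p = 0.00379). The call over extract was lost without HA break 2 (0.27, limma adjusted p = 0.0571), without HA no break (0.22, 0.262) and with the untagged IP subtracted (0.28, 0.0575), and the value was -0.13 with extracts as deposited. Against the other borders it was higher by 0.56 ± 0.04 in IP alone (SE, limma adjusted p = 0.00792) and by 0.55 over extract (0.0180). The first of these had an adjusted p of 0.0719 without HA break 1 (limma). The core of chromosome 5 did not stand apart from the other cores in that test (0.02, limma adjusted p = 0.781). On the scale as deposited the border difference of chromosome 5 was 0.53 and called, while none of the 15 other borders was called and the median of all 16 was -0.01.

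The fall was graded with distance from the cohesin maximum on the uncut chromosomes. It was -0.71 ± 0.08 within 5 kb, -0.66 at 5 to 10 kb, -0.45 at 10 to 15 kb, -0.43 at 15 to 20 kb, -0.30 at 20 to 30 kb and -0.18 at 30 to 50 kb in IP alone, and all 6 classes were called. The outermost was called neither in the HA libraries alone (-0.14), which is the fit without either Pk library, nor without HA break 1 (-0.18, limma adjusted p = 0.203) or HA break 2 (-0.20, 0.0537). Over extract the first 4 were called, from -0.71 to -0.26, and the outer 2 were not (-0.15 and -0.02). In the HA libraries alone 10 to 15 kb (-0.24) and 15 to 20 kb (-0.17) were not called over extract either, and 15 to 20 kb was not without HA break 2 (-0.27, limma adjusted p = 0.0565). With values not centred, 20 to 30 kb stood at 0.04 and 30 to 50 kb at 0.16 in IP alone, and 10 to 15 kb at -0.09 and 15 to 20 kb at -0.05 over extract, none of them called. The arms, beyond 30 kb from the maximum and 20 kb from an end, were lower in 22 of 31 in IP alone, with a median of -0.15. In 0 of 31 were they lower over extract, where the median was -0.02. The arm calls did not last: 0 of 31 were called without HA break 1 or without either Pk library, and as deposited the median arm was at 0.18. Arm windows sorted by Scc1 level in the HA rad17 libraries, which are outside the comparison, fell in the top class by 0.31 and in the class below it by 0.19 in IP alone, with the other 8 classes not called, from -0.11 to 0.01. Over extract only the top class was called (-0.34). The class below the top was not called in IP alone in the HA libraries alone (-0.14) or without HA break 1 (-0.20, limma adjusted p = 0.171), and the top class over extract not in the HA libraries alone (-0.25) or with the trended prior (0.115). With the trended prior the top class in IP alone was at an adjusted p of 0.0501 (limma). As deposited, the top class stood at 0.03 and the next at 0.14 in IP alone.

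**Figure D5:**
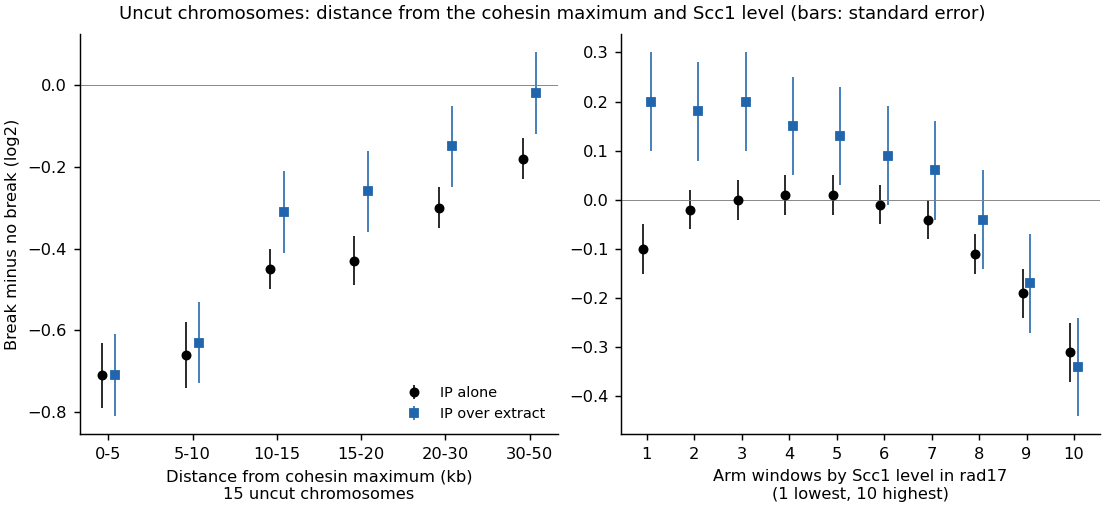
Break minus no break (log2) on the 15 uncut chromosomes by distance from the cohesin maximum in kb (left) and by class of Scc1 level on the arms from 1, lowest, to 10, highest (right). Points are limma estimates for IP alone and IP over extract, and bars are standard errors. IP alone runs from -0.71 within 5 kb to -0.18 at 30 to 50 kb, and reaches -0.31 in the top level class.

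Away from chromosome 5, falls of single windows lay mostly in cores and rises were few. Of the 117 windows that fell, 11 lay on chromosome 5 and 62 in cores of the 15 uncut chromosomes, which is 21.8% of the windows there. The tallest fall off chromosome 5 was on chromosome 4 at 443001 to 444000, 5 kb from the cohesin maximum, at 1.64, 1.37 and 1.40 times the median with a break and 4.94 and 5.09 times without (3.36-fold, limma adjusted p = 3.26e-04). Over extract the same window fell 8.62-fold, beside an extract difference of 1.48 that was not called (limma adjusted p = 0.0585). On chromosome 2, 239001 to 240000 stood at 10.1, 9.92 and 7.41 against 18.4 and 22.8 (2.28-fold). The untagged strain reached 8.57 times its own median in that window. In neither window did the 7 cut IP libraries of other genotypes come down to the wild-type break level, since they ran from 2.23 to 4.10 times the median in the first and from 14.5 to 34.3 in the second. Other named falls, on chromosomes 1, 3, 4 and 14, were between 2.05-fold and 2.24-fold.

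Of the 15 windows that rose outside chromosome 5, 12 formed the left end of chromosome 3, from its first window to 12000. At 3001 to 4000 the IP was 1.44, 1.70 and 1.82 times the median with a break and 0.624 and 0.438 times without, a 2.93-fold rise (limma adjusted p = 0.00174) that was 4.00-fold over extract. The outer 20 kb as a whole stood at 0.95, 1.07 and 1.06 against 0.31 and 0.24 and rose by 0.75 in IP alone and 0.74 over extract, though with extracts as deposited the latter was 0.28 and not called (limma adjusted p = 0.313). Relative to other chromosome ends it was higher by 0.81 (limma adjusted p = 0.00997), with an adjusted p of 0.0726 without HA break 1. In multiples of each library's own median, the level without a break was below that of the untagged strain at 3001 to 4000 (0.769). The HA no-break median was itself 6.84-fold above the untagged median, so this does not place that library below background there. The 7 cut IP libraries of other genotypes ran from 0.812 to 1.57 in that window, all above both no-break libraries. The right end of chromosome 3 rose over extract by 0.43 but not in IP alone (0.22, limma adjusted p = 0.0670). As classes, the ends of the uncut chromosomes were not called in either readout. In IP alone 3 of 30 single ends rose and 3 fell, beside 9.46% and 45.9% of all 148 regions, so rises were no more frequent among ends than elsewhere. The left ends of chromosomes 1, 3 and 5 rose, and the left ends of chromosomes 6 and 9 and the right end of chromosome 13 fell. The left end of chromosome 5 is also the class over 100 kb left of the break, with the same difference (0.44). The other 3 rising windows were 2 on chromosome 4 at 1457001 to 1459000 (up to 2.28-fold), which adjoin a fall of 2.07-fold at 1454001 to 1455000, and 1 on chromosome 13.

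IP over extract called far more windows than IP alone, 497 higher (4.27%) and 1209 lower (10.4%), and most of these were not called in the IP. The tallest rises over extract were again at 127001 (7.61-fold) and 108001 (6.47-fold) on chromosome 5 and at the left end of chromosome 3. The tallest falls after that on chromosome 4 were 5.04-fold at 159001 and 4.99-fold at 1027001 on chromosome 12, where the IP differences of -0.88 and -0.50 were not called and the extract differences were 1.58 and 1.94, also not called. Of the 71 rises in IP alone 56 were also called over extract, which is 78.9% of the first list and 11.3% of the second, and of the 117 falls 73 were (62.4% and 6.04%). In the 1209 windows lower over extract the median difference was -0.23 in the IP and 1.00 in the extract. Over windows more than 100 kb from the break, the difference over extract had a Pearson r of -0.88 with that of the extract alone, which it contains, and the IP difference had 0.03. Both no-break extracts shared their uneven pattern (r = 0.93 over 11638 windows), as did HA break 2 with HA no break (0.87), while HA break 1 did not (0.26). The part of this unevenness in the calls over extract was not tested beyond these values.

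The HA and Pk tags showed no called difference in their break effect in IP alone. A tag by break term was called in 0 of 148 regions by limma (0%), with 28 at an unadjusted p under 0.05, in all of which the Pk effect was the lower. With 1 library on 3 of the 4 sides it has 1 residual degree of freedom, and the Pk no-break library is the shallowest. Over extract 1 of 148 was called (0.676%), the right end of chromosome 4. In the core of chromosome 4 the effects were -0.65 in HA and -0.94 in Pk.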

How the data were processed

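Scc1 ChIP-seq coverage in 1 kb windows was analysed for 5 IP libraries and their 5 extracts, with 1 deposited file per library. The authors deposited IP signal as coverage calibrated against added Candida glabrata cells, per the labels' design text, and extract signal as unscaled coverage, in which the smallest value above 0 is 1. The submitters' processing notes list Bowtie2, SAMtools, bedtools and MACS2, with neither roles nor versions. Genome build, annotation and read filters are not given, so no gene names or sequences are printed. Depth was expressed in multiples of each file's smallest value above 0, taken as 1 read.

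Windows were kept (11638 of 12447) where the mean of the 5 extracts, each relative to its median, lay from 0.25 to 4. Each value was divided by the library median. For single windows 5% of the median was added as a pseudocount, so their fold changes understate those of low windows. A region is the log2 of the mean over its windows, and a chromosome the median of its window values. The log2 values were fitted with limma 3.58.1 in R 4.3.3 with break and tag as terms (2 residual degrees of freedom, Benjamini-Hochberg, threshold 0.05). IP over extract is the difference of both log2 values, recentred on the library median. Regions (148 with at least 3 kept windows, of 151 planned) are distance classes, chromosomes, cores, borders, arms, ends and level classes. Cohesin maxima, which stand in for centromeres, are the highest running mean of 21 windows in 2 HA rad17 IP libraries outside the comparison. Windows past the threshold and at most 2 kb apart were joined, and the 10 largest rises and falls per readout were eligible to be named. Windows at 103001 and 135001 of chromosome 5 and at 602001 of chromosome 13 were chosen after their values were seen. The members, regions and tests were chosen with earlier results of these data known. Single values were also tested by exact permutation of break labels within tag.

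Tested on simulated data, the window fit recovered 39.0% of changes of 1 log2 unit and 79.0% of changes of 2 in IP alone, and 1.00% and 58.0% over extract. Alternatives tried were the pseudocount, window filter, centring, tag term, prior spread, HA libraries alone, extract smoothing and scaling, subtraction of the untagged IP, and leaving out each library. The untagged IP, made with the anti-HA antibody, was subtracted from HA and Pk libraries alike, so it is no matched background for Pk. No column of the files used went unread (0 columns).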

Additional observations from a re-analysis of the deposited data

Results flagged for a closer look

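At the right end of chromosome 4 the break effect over extract differed between the tags, which is what marked it: the Pk effect minus the HA effect was -0.74 on the log2 scale (limma interaction, adjusted p = 0.0105, over 6 windows). IP over extract stood at -0.48 and -0.80 in the HA break libraries and -0.98 in HA no break, so HA was higher with a break, and at -1.16 in Pk break and -0.77 in Pk no break, so Pk was lower. Joined over both tags the difference was 0.03 (limma adjusted p = 0.881). In IP alone the values were -1.80, -1.52 and -2.56 with a break and -1.74 and -1.57 without, and the tag term was not called. All 5 libraries were far below their medians at this end, where few reads stand behind a window, and each tag has 1 library without a break.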

How the results depend on the processing

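In IP alone the 188 called windows became 120 and 410 with pseudocounts of 1% and 20% of the median, 0 without the window filter, 324 with values not centred (311 higher, 13 lower), 0 with own residual spread, 458 with a trended robust prior, 78 in the HA libraries alone, 12 with the untagged IP subtracted and 64 to 834 when 1 library was left out. The 82 called regions became 3 with own spread, 54 in HA alone and 54 to 91 with 1 library left out. The 16 regions standing apart from other chromosomes became 0 with own spread, 10 in HA alone and 0 to 10 with 1 library left out. The tag by break term was called in 11 regions with a filter of 0.5 to 2. Over extract the 1706 windows became 9 without the filter, 579 not centred, 0 with own spread, 649 in HA alone, 768 with smoothed extracts, 862 with the untagged IP subtracted and 160 to 2079 with 1 library left out. The 54 regions became 0 with own spread. The 6 regions standing apart became 0 with own spread and in HA alone, 31 with the trended prior and 0 to 36 with 1 library left out. The single tag by break call was lost (0) without the filter, with the narrow filter, not centred, and with own spread, trended prior, smoothed or unscaled extracts, and became 2 with the untagged IP subtracted. In the extract, 11 windows became 792 (pseudocount 20%), 0 (no filter), 1264 (narrow filter), 17 (no tag term), 0 (own spread), 2807 (trended prior), 599 (HA alone) and 8 to 4587 (1 library left out), and 4 regions became 7 (no filter), 0 (own spread), 26 (trended prior) and 4 to 32 (1 library left out). Not centred, signs turned in IP alone at the borders of chromosomes 1 (0.03), 2 (0.05), 4 (0.06), 9 (0.04) and 11 (0.01), the left arm of chromosome 3 (0.32), the medians of chromosomes 2 (0.30), 4 (0.32), 6 (0.31), 7 (0.30), 10 (0.29), 12 (0.28) and 15 (0.31), 20 to 30 kb (0.04) and 30 to 50 kb (0.16) from the cohesin maximum, the end classes at 5 to 10 (0.28), 10 to 20 (0.32) and 20 to 30 kb (0.29), and level classes 2 (0.31), 3 (0.34), 6 (0.33), 7 (0.30), 9 (0.14) and 10 (0.03), because the genome shift is then kept. With extracts as deposited they turned over extract at 15 to 20 kb (-0.04), 50 to 75 kb (-0.07), 75 to 100 kb (-0.13) and over 100 kb left (-0.17), 50 to 75 kb (-0.01) and 75 to 100 kb right (-0.13), the right end (-0.03) and left arm (-0.16) of chromosome 3, and chromosome 5 (-0.12), its border (-0.13) and its left end (-0.17). The first 5 kb left over extract stood at 0.05 without the filter, and the right end of chromosome 4 over extract at -0.39 without HA no break. Where no construction is named, the cause was not tested. Pk libraries alone gave values with no test. No paired analysis was possible because the groups compared share fewer than 2 replicate numbers. The Pk no-break IP, at 9.90 reads per median window, limits every Pk value.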

Other observations

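On chromosome 13 the 2 HA break libraries lacked signal at 602001 to 603000 in both IP and extract, where each was at 0. The other 3 libraries held 0.913 to 1.15 times the median in IP and 0.908 to 1.43 in extract. The window before it, at 601001 to 602000, stood at 0.177 and 0.145 in the HA break IPs and at 0.119 and 0.192 in their extracts, against 0.712 to 0.917 (IP) and 0.665 to 0.984 (extract) in the others. Both HA break libraries come from 1 strain, APY875. The IP difference at 602001 was not called (-2.54, limma adjusted p = 0.0684).

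The upper tail of the windows, in multiples of each library's own median, was lower with a break. The 99th percentile stood at 10.7, 11.2 and 10.2 times the median in HA break 1, HA break 2 and Pk break. In HA and Pk no break it stood at 14.3 and 15.4, while the 10th percentile lay between 0.435 and 0.484 in all 5. The median as deposited was itself higher with a break, 1.18-fold for HA and 1.39-fold for Pk. With that shift kept, the top level class of arm windows differed by 0.03 in IP alone and was not called. How far windows of the cores make up this tail was not tested.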
